A study of Arabidopsis thaliana with 9 samples.

Results

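The genes described here are those encoded on the chloroplast genome of Arabidopsis thaliana. They were taken as every row of the count table whose identifier begins with ATCG, which gave 133 members among 33602 rows. The other rows are 33323 nuclear and 146 mitochondrial identifiers. RNA was sequenced from whole Col-0 seedlings of 3 genotypes with 3 libraries each: the bdr1,2,3 triple mutant, the fpa single mutant fpa-7, and wild type. The bdr1,2,3 plants carry T-DNA insertions in BDR1, BDR2 and BDR3, nuclear genes for a family of proteins with an SPOC domain and a TFIIS central domain. The fpa-7 plants are mutant in FPA, a nuclear gene for an RNA-binding protein that promotes flowering and 3′ end formation. All seedlings were 8 days old and had been grown on MS plates at 21 °C in 16 h light and 8 h dark after 4 days of stratification at 4 °C. The labels do not say whether the libraries of a genotype came from separate plates or harvests, so the p-values below measure the spread between these libraries.

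The chloroplast genome encodes core subunits of the photosystems, the cytochrome b6f complex, the ATP synthase and the NADH dehydrogenase-like complex, the large subunit of Rubisco, part of the plastid ribosome and the plastid-encoded RNA polymerase. It is transcribed inside the organelle by that bacterial-type polymerase, which needs nuclear-encoded sigma factors and associated proteins, and by a nuclear-encoded phage-type polymerase. Most plastid genes are transcribed in polycistronic units. Plastid mRNAs lack the stable poly(A) tail of nuclear mRNAs, and in plastids a poly(A) tail marks RNA for decay. Libraries made from polyadenylated RNA therefore hold few plastid reads, and those reads are not a direct measure of plastid mRNA abundance. The kit is an mRNA kit by the study's methods and is named without that detail in the labels.

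The chloroplast genome also carries a large inverted repeat, and the deposited counts rest on reads that aligned to one place only. In the RefSeq sequence of the TAIR10.1 assembly the chloroplast genome is 154478 bp long, and the repeat copies run from 84171 to 110434 and from 128215 to 154478, 26264 bp each. Of all stretches of 49 bases, the length of the reads, 64.51% occurred once in the whole genome. RefSeq annotates 129 chloroplast genes, and 123 of them are long enough to hold such a stretch. In 28 of these 123 genes no stretch occurred once: 10 protein-coding genes, all 7 rRNA genes and 11 tRNA genes. Of the 28 genes, 27 lie wholly inside the repeat. In 85 genes at least 90% of the stretches occurred once. The first 49 coding bases of rpl2 (ribosomal protein L2, in the repeat) and of 2 genes outside the repeat show the contrast. They are printed 5′ to 3′ with the start codon in capitals.
rpl2, Pltd:85795-85843 on the minus strand and Pltd:152806-152854 on the plus strand: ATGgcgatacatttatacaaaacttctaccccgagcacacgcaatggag
clpP, Pltd:71834-71882 on the minus strand: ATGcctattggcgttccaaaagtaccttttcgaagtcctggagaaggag
cemA, Pltd:60741-60789 on the plus strand: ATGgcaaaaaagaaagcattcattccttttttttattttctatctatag
The rpl2 stretch occurs 2 times in the genome, once in each repeat copy, and each of the other stretches occurs 1 time.

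The annotation used here pairs none of the 133 identifiers with a gene symbol. Notes on nuclear genes in it name a few of them, among which are ATCG00430 (photosystem II reaction center protein G), ATCG00530 (a CemA-like protein), ATCG00660 (ribosomal protein L20), ATCG00670 (plastid-encoded CLP P, the proteolytic subunit of the Clp protease) and ATCG01310 (ribosomal protein L2). All other members are given by identifier, and no function is assigned to them. ATCG01310 had 0 counts in all 9 libraries. Over the summed 171257808 counts, a count of 0 allows up to 0.0175 CPM (the count scaled to a common library size), for uniquely aligned reads and for counting error only.

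Of the 133 members, 34 had no count in any library and 9 had a summed count of 1 to 9. The remaining 90 reached the minimum of 10 and were tested, and 77 had counts in all 9 libraries. Most members at or near 0 lay in runs of consecutive identifiers. ATCG00830 to ATCG00940 held 13 identifiers with 7 counts in all, ATCG00960 to ATCG01000 held 5 with no count, ATCG01140 to ATCG01170 held 4 with no count, and ATCG01190 to ATCG01310 held 13 with 6 counts in all. ATCG00230 to ATCG00260 held 4 identifiers with 4 counts. Outside these runs, ATCG00060 had 6 counts in all, ATCG00320 and ATCG00460 had 2 each, and ATCG01030 had none. The part of the unique-alignment filter in these values was not tested, since the identifiers are not placed on the sequence here.

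The 115298 plastid counts were concentrated in few members. ATCG00020 alone held 14.17% of them, the 10 members with the most counts held 59.81%, and 8 members were enough to reach 50%. The median summed count of the 90 tested members was 444.5. These shares are of counts and are not corrected for gene length. As RPKM (CPM scaled to exon length), ATCG00530 averaged 18.1 in bdr1,2,3, 11.4 in fpa-7 and 18.5 in wild type, with the length of RefSeq cemA (Pltd:60741-61430). ATCG00670 averaged 17.2 RPKM in bdr1,2,3, 10.6 in fpa-7 and 14.7 in wild type, with the length of clpP (Pltd:69910-71882, minus strand). ATCG00660 averaged 5.72 RPKM in bdr1,2,3, 3.09 in fpa-7 and 6.76 in wild type (rpl20, Pltd:68512-68865, minus strand), the lowest of these 3 members in each genotype.

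The libraries held from 8676610 to 26861793 counts, with wild-type replicate 12 the shallowest. BDR1 had 0.893 to 1.95 CPM in bdr1,2,3 against 28.9 to 42.2 CPM in wild type. BDR2 had 8.72 to 11.3 CPM in bdr1,2,3 against 14.2 to 19.4 CPM in wild type, and BDR3 had 3.23 to 8.09 CPM against 6.21 to 11.6 CPM, with overlap. FPA had 37.9 to 45.4 CPM in fpa-7 against 42.0 to 63.3 CPM in wild type, and a count over a gene with an insertion does not measure intact transcript. Several libraries stood apart in their plastid counts, by different measures. Among the bdr1,2,3 libraries, replicate 7 had the lowest CPM of its genotype for 66 of the 90 members. Among the fpa-7 libraries, replicate 3 had the highest for 71. In wild type, replicate 12 took the lowest share of the plastid counts of all 9 libraries for 23 members and the highest for 13. For bdr1,2,3 replicate 7 these numbers were 8 and 24, for fpa-7 replicate 6 they were 11 and 15, and for fpa-7 replicate 8 they were 19 and 5. Wild-type replicate 12, bdr1,2,3 replicate 7 and fpa-7 replicate 6 had the fewest plastid counts (5854, 5799 and 5616). Shares from fewer counts vary more by sampling, and the part of sampling in these numbers was not tested. Over the 77 to 87 members with at least 10 counts in a pair, libraries of the same genotype differed by more than sampling noise in all 9 pairs (chi-square divided by its degrees of freedom at least 4.33).

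The first question was whether the share of plastid reads differed between genotypes. Plastid rows took 0.0830%, 0.1003% and 0.0398% of all counts in bdr1,2,3 replicates 2, 4 and 7. In fpa-7 replicates 3, 6 and 8 they took 0.0560%, 0.0318% and 0.0384%. In wild-type replicates 1, 12 and 5 they took 0.0768%, 0.0675% and 0.0845%. All 3 fpa-7 libraries lay below all 3 wild-type libraries. In contrast, bdr1,2,3 overlapped wild type through its replicate 2, and it overlapped fpa-7 through its replicate 7. Wilson 95% intervals, which cover counting error only, ran from 0.0310% to 0.0327% for the lowest library and from 0.0990% to 0.102% for the highest. Differences between libraries of a genotype were thus far larger than counting error.

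The mean plastid share was 0.0421% ± 0.0125 in fpa-7 and 0.0763% ± 0.00852 in wild type (SD, n = 3 each), a ratio of 0.552 (exact permutation test, two-sided, p = 0.1, adjusted p = 0.3 over 3 comparisons). With 3 against 3 libraries 0.1 is the smallest p this test allows. The mean in bdr1,2,3 was 0.0744% ± 0.0311 (SD, n = 3), 0.975 times that of wild type (exact permutation p = 0.9, adjusted p = 0.9). It was 1.77 times that of fpa-7 (exact permutation p = 0.2, adjusted p = 0.3). The bdr1,2,3 minus wild-type difference changed sign when a library was left out, at 0.0154 percentage points without bdr1,2,3 replicate 7 and -0.0148 without replicate 4. The fpa-7 minus wild-type difference stayed between -0.0411 and -0.0291 percentage points when any library was left out. In seedlings sampled whole, fewer green cells and less plastid RNA per cell cannot be told apart. Since these reads are not a direct measure of plastid mRNA abundance, a difference in how much plastid RNA entered the libraries cannot be told apart either.

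**Figure D1:**
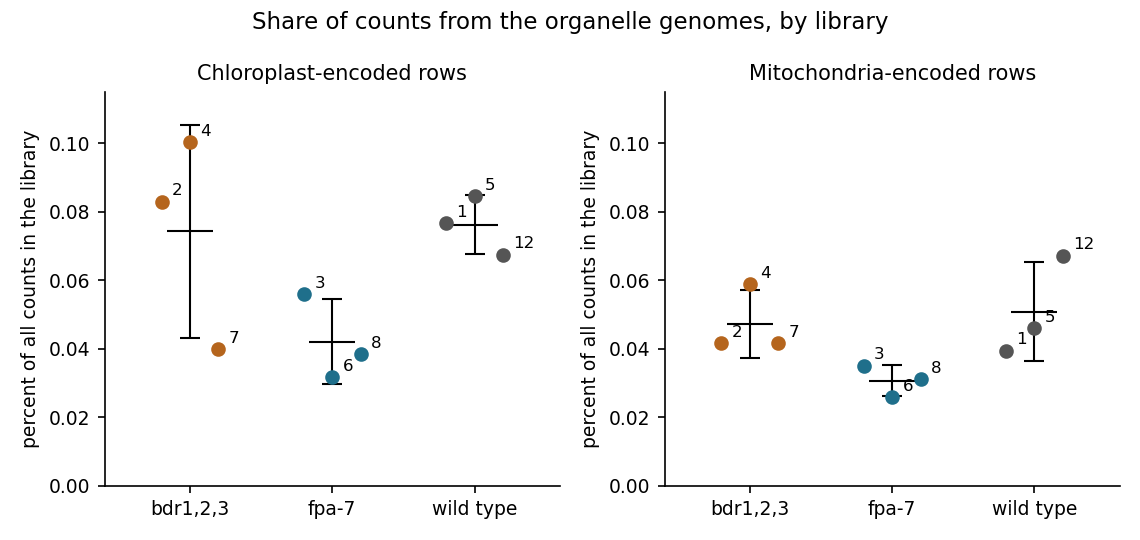
Share of all counts from chloroplast-encoded rows (left) and mitochondria-encoded rows (right), in percent, for each library, with replicate numbers. Bars give the mean and SD of 3 libraries. The fpa-7 libraries sit below wild type in both panels, and bdr1,2,3 replicate 7 is low in the plastid panel (0.0398%) but not in the mitochondrial one (0.0415%).

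Counts from the other organelle genome were also lower in every fpa-7 library than in any wild-type library. Mitochondrial rows took 0.0307% ± 0.00460 of counts in fpa-7 and 0.0509% ± 0.0145 in wild type (SD, n = 3 each), with no overlap (exact permutation p = 0.1, adjusted p = 0.15). The bdr1,2,3 libraries took 0.0473% ± 0.00993 (SD, n = 3), which overlapped wild type. Unlike in the plastid share, bdr1,2,3 did not overlap fpa-7 here, at 1.54 times its mean (exact permutation p = 0.1, adjusted p = 0.15). Plastid counts per mitochondrial count were 1.60, 1.23 and 1.23 in fpa-7 replicates 3, 6 and 8, and 1.95, 1.004 and 1.84 in wild-type replicates 1, 12 and 5. These ratios overlapped, so the plastid counts were not shown to differ from the mitochondrial ones (exact permutation p = 0.4).

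The marker lists for the organs in a seedling were read beside these values. For 10 nuclear genes of green tissue (light-harvesting proteins of the LHCB family and Rubisco small subunits), the summed level was 23860 to 29470 CPM in fpa-7 and 26600 to 30200 CPM in bdr1,2,3. In wild type it was 28900 and 29950 CPM in replicates 1 and 5 and 49750 CPM in replicate 12. LHCB1.3 and RBCS1A together made up most of each sum, so the sums say little of the other green genes. By edgeR 0 of the 10 were called in fpa-7, and 1 rose in bdr1,2,3 (0.546% of all genes tested). In fpa-7, 4 of the 10 were lower at an unadjusted p under 0.05, against 10.2% of all genes, and DESeq2 called 0. In bdr1,2,3, 4 of the 10 were lower at an unadjusted p under 0.05 (8.41% of all genes) and 1 higher (6.13%). There DESeq2 called 2 lower (2.85% of all genes) and 1 higher (1.08%). The gene called higher by both tools was LHCB3, at 485 ± 69.6 CPM in bdr1,2,3 and 279 ± 29.2 CPM in wild type (SD, n = 3 each), with a log2 fold change of 0.80 (edgeR, adjusted p = 0.0174). The genes that DESeq2 alone called lower in bdr1,2,3 were RBCS2B and RBCS3B, with edgeR log2 fold changes of -0.69 (adjusted p = 0.0583) and -0.80 (adjusted p = 0.0678). For 10 root genes the sum was 3368 to 3824 CPM in fpa-7, 2535 to 2949 CPM in bdr1,2,3 and 2809 to 3310 CPM in wild type, with 0 genes called by edgeR in either mutant. Nearly all of each sum was PYK10, at 3272 to 3731 CPM in fpa-7, 2438 to 2830 CPM in bdr1,2,3 and 2736 to 3215 CPM in wild type. The root sums are therefore close to the level of 1 gene. At an unadjusted p under 0.05, 1 root gene was higher in fpa-7 (8.80% of all genes) and 2 in bdr1,2,3 (6.13%). DESeq2 called 1 root gene higher in fpa-7, CASP4 (2.71% of all genes), and 0 in bdr1,2,3. The part of tissue make-up in the plastid result was not tested.

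The second question was which members changed. Counts of all 22725 rows with a summed count of at least 10 were fitted together with edgeR's quasi-likelihood test, after TMM scaling, and p-values were adjusted by Benjamini-Hochberg over all of them. A gene was called at an adjusted p under 0.05. All fold changes below are from this fit, each with its standard error (SE).

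In fpa-7 most plastid genes had lower levels than in wild type, and a few passed the test. Of the 90 tested members 7 were called lower (7.78%, against 1.75% of all genes tested) and 0 higher (1.18% of all genes). None was higher at an unadjusted p under 0.05 or by DESeq2 either (0 and 0). The log2 fold change was below 0 in 79 members, with a median of -0.98, against 0.01 over all genes tested. The median corresponds to a fold of 0.507, and the interquartile range of the members ran from -1.35 to -0.42. At an unadjusted p under 0.05, 44 members were lower (48.9%, against 10.2% of all genes). In 39 members all fpa-7 libraries lay below all wild-type libraries (43.3%, against 12.4% of all genes), and in 0 members did they lie above (13.2% of all genes). Members share an organelle, and a library low in plastid RNA is low for many of them at once, so these counts are not independent observations. The number of calls depended on single libraries: it was 0 without fpa-7 replicate 8 and 1 without fpa-7 replicate 6 or wild-type replicate 5. It was 4 without bdr1,2,3 replicate 4, 6 without bdr1,2,3 replicate 2, and 10 to 16 without wild-type replicate 1 or 12, fpa-7 replicate 3 or bdr1,2,3 replicate 7. The median stayed between -1.38 and -0.83 in all 9 of these fits.

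Scaling each library to its own plastid total centres the members near 0 by construction and shows only their levels relative to one another. Under that scaling 2 members were called higher in fpa-7, ATCG01020 and ATCG01130, and 0 lower, with a smallest adjusted p of 0.0496 (edgeR). It also moves the median of all genes tested to 1.095, and the p-values are adjusted over all of them. The share of all genes called under it was not taken, so the 2 calls do not show a relative rise.

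**Figure D2:**
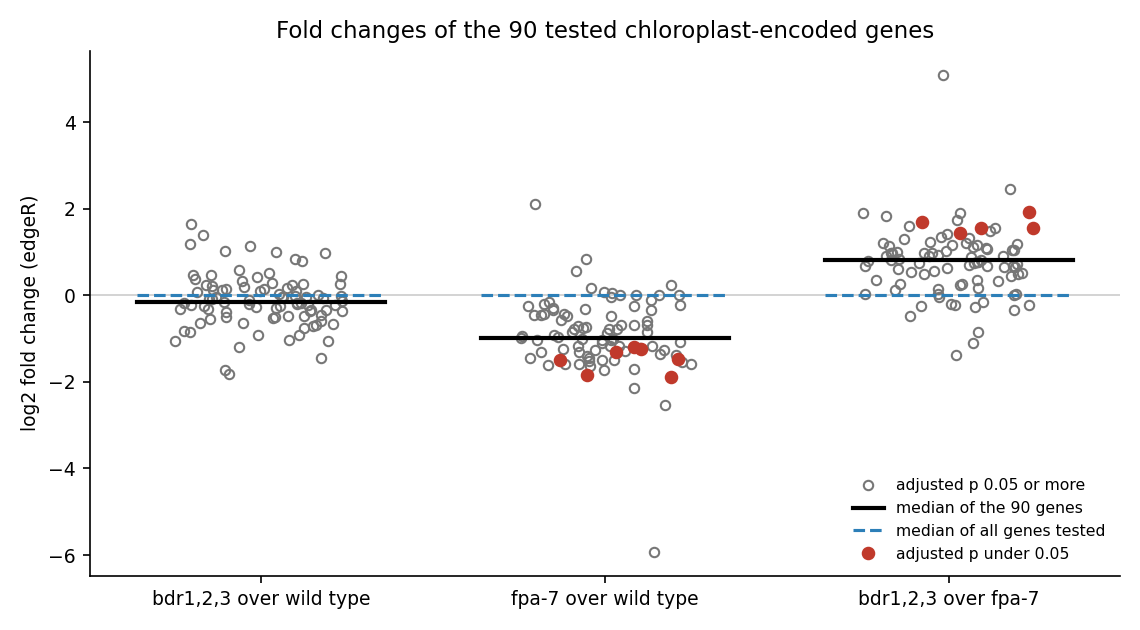
Log2 fold changes of the 90 tested chloroplast-encoded genes in each comparison. Filled points have an adjusted p under 0.05, the solid line is the median of the 90 genes and the dashed line that of all genes tested. The fpa-7 points centre on -0.98 and the bdr1,2,3 over wild-type points on -0.15.

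The members called lower in fpa-7 had summed counts from 783 (ATCG01050) to 6312 (ATCG00350), all above the median member. ATCG00720 had 2.37, 2.39 and 1.24 CPM in fpa-7 replicates 3, 6 and 8, against 5.35, 9.59 and 7.63 CPM in wild-type replicates 1, 12 and 5. It had the smallest adjusted p of all members, with a log2 fold change of -1.89 (SE 0.36, adjusted p = 0.00978 from edgeR), and the groups did not overlap. The call was lost in 2 of 18 alternative fits, when scaled to the plastid total and without fpa-7 replicate 8. ATCG00150 had 3.39, 1.12 and 1.57 CPM in fpa-7 against 5.40, 8.32 and 8.16 CPM in wild type (log2 fold change -1.85, SE 0.37, adjusted p = 0.0148). ATCG01050 had 2.71, 1.75 and 1.33 CPM in fpa-7 against 3.53, 5.36 and 7.18 CPM in wild type (log2 fold change -1.48, SE 0.38, adjusted p = 0.0470). This last call was the least stable, lost in 11 of 18 alternatives.

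Neighbouring identifiers ATCG00340 and ATCG00350 fell together. ATCG00340 had 23.9, 13.4 and 11.2 CPM in fpa-7 against 41.1, 38.2 and 53.8 CPM in wild type (log2 fold change -1.47, SE 0.36, adjusted p = 0.0419). ATCG00350 had 27.5, 15.2 and 15.5 CPM in fpa-7 against 42.9, 48.0 and 53.3 CPM in wild type (log2 fold change -1.31, SE 0.33, adjusted p = 0.0419). In both members fpa-7 replicate 3 was the highest of its genotype and still below every wild-type library. Both calls were lost in 9 of 18 alternatives, DESeq2 and a stricter filter on low counts among them.

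The remaining called members, ATCG00540 and ATCG00040, also showed no overlap between genotypes. ATCG00540 had 20.1, 14.0 and 10.99 CPM in fpa-7 against 32.5, 33.3 and 40.0 CPM in wild type (log2 fold change -1.24, SE 0.25, adjusted p = 0.0129). ATCG00040 had 6.55, 4.62 and 3.38 CPM in fpa-7 against 11.2, 10.7 and 11.2 CPM in wild type (log2 fold change -1.19, SE 0.27, adjusted p = 0.0272). For ATCG00040 the 3 bdr1,2,3 libraries, at 9.03, 9.003 and 5.08 CPM, also lay below wild type, but that difference was not called (log2 fold change -0.51, SE 0.26, adjusted p = 0.392).

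**Figure D3:**
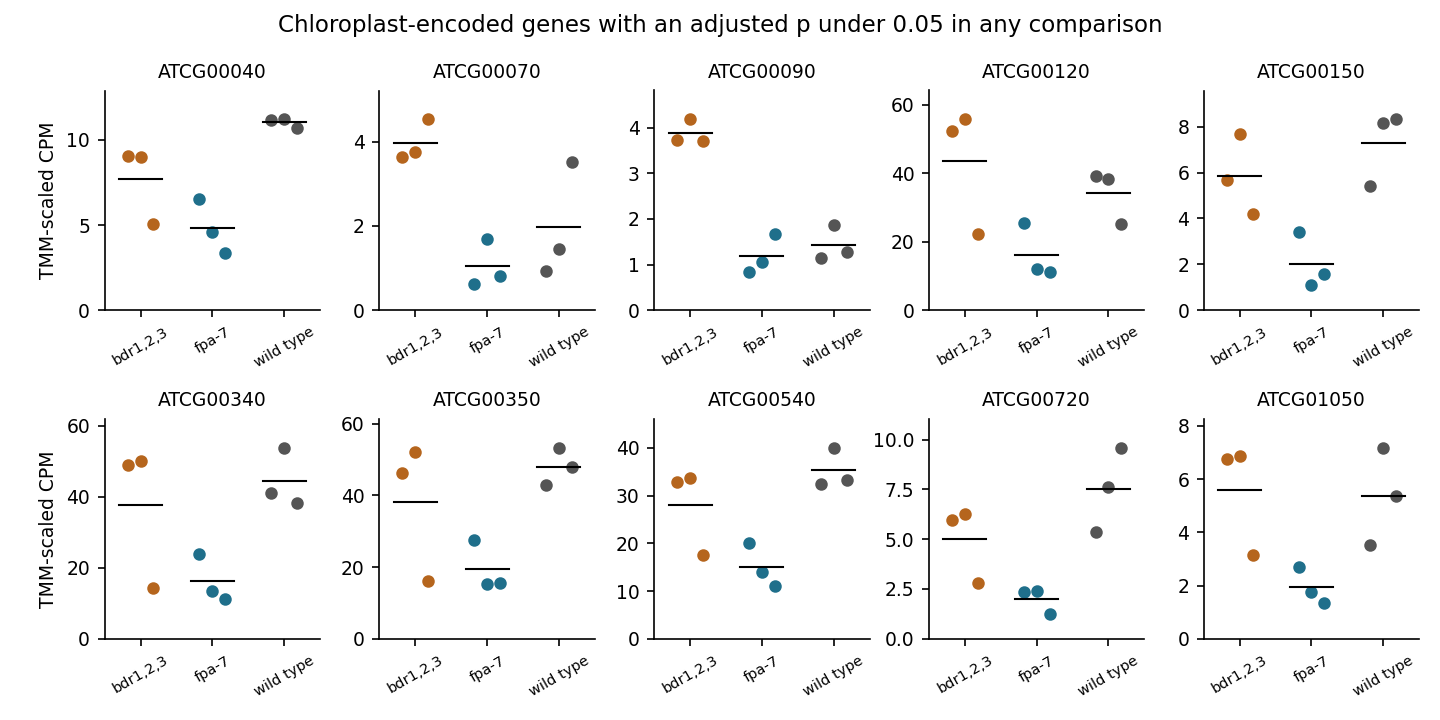
TMM-scaled CPM of the 10 chloroplast-encoded genes with an adjusted p under 0.05 in any comparison. Points are libraries in order of replicate number and bars are means of 3. In most panels bdr1,2,3 replicate 7, the rightmost bdr1,2,3 point, lies near the fpa-7 libraries, whereas for ATCG00070 and ATCG00090 it lies with the other bdr1,2,3 libraries.

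The most abundant members had changes of a similar size, and most did not reach the threshold. All 10 members with the most counts had a negative log2 fold change in fpa-7, between -1.47 and -0.78, all with an unadjusted p under 0.05, and in 9 of them the groups did not overlap. ATCG00020 had 53.1, 34.3 and 81.4 CPM in fpa-7 replicates 3, 6 and 8, against 85.3, 157 and 97.9 CPM in wild-type replicates 1, 12 and 5. Its log2 fold change was -1.001 (SE 0.43, adjusted p = 0.219), with the highest fpa-7 library just under the lowest wild-type one. ATCG00490 had 32.5, 14.3 and 29.9 CPM in fpa-7 against 41.6, 86.1 and 62.2 CPM in wild type (log2 fold change -1.30, SE 0.34, adjusted p = 0.0530). ATCG00280 had 41.1, 19.7 and 18.5 CPM in fpa-7 against 60.1, 59.5 and 75.6 CPM in wild type (log2 fold change -1.31, SE 0.35, adjusted p = 0.0570). These last members missed the threshold narrowly, and their fold changes were as large as those of several called members.

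Scarce members carried the extremes. ATCG01180 had 0 counts in all fpa-7 libraries, against 1, 5 and 13 counts in wild-type replicates 1, 12 and 5. Set against a floor of 3 counts over the 3 fpa-7 libraries, wild type was at least 6.87-fold higher, and the adjusted p was 0.129. ATCG00310, with the highest fitted fold change, had 3, 0 and 3 counts in fpa-7 against 1, 0 and 0 counts in wild type (adjusted p = 0.584). Of the 14 tested members with a mean under 10 counts per library, edgeR called 0, with 1 at an unadjusted p under 0.05, ATCG01180, which was also the 1 that DESeq2 called.

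A run of consecutive members had fold changes near 0 in fpa-7. It was chosen after its values were seen and was not tested as a group. The 9 identifiers from ATCG00740 to ATCG00820 had log2 fold changes between -0.42 and 0.25 in fpa-7, with a median of -0.09, and the 4 from ATCG01100 to ATCG01130 lay between -0.85 and 0.08. The other 77 tested members had a median of -1.07. As a share of the plastid counts, ATCG00740 to ATCG00820 took 10.8%, 10.3% and 7.82% in fpa-7 replicates 3, 6 and 8. They took 6.97%, 4.32% and 5.66% in bdr1,2,3 replicates 2, 4 and 7, and 9.71%, 1.38% and 4.48% in wild-type replicates 1, 12 and 5. Wild-type replicate 12 had the lowest share of all 9 libraries for each of these 9 members and for each of the 4 others. Wild-type replicate 1 lay within the range of fpa-7 by this share, so the genotypes overlapped. Summed, ATCG00740 to ATCG00820 had 58.0, 30.8 and 29.1 CPM in fpa-7 replicates 3, 6 and 8. In wild-type replicates 1, 12 and 5 they had 73.0, 11.4 and 38.0 CPM. Wild-type replicate 12 had the lowest CPM of all 9 libraries for 8 of these 9 members, so their fold changes near 0 depend on that library. Their fold changes without it were not taken.

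**Figure D4:**
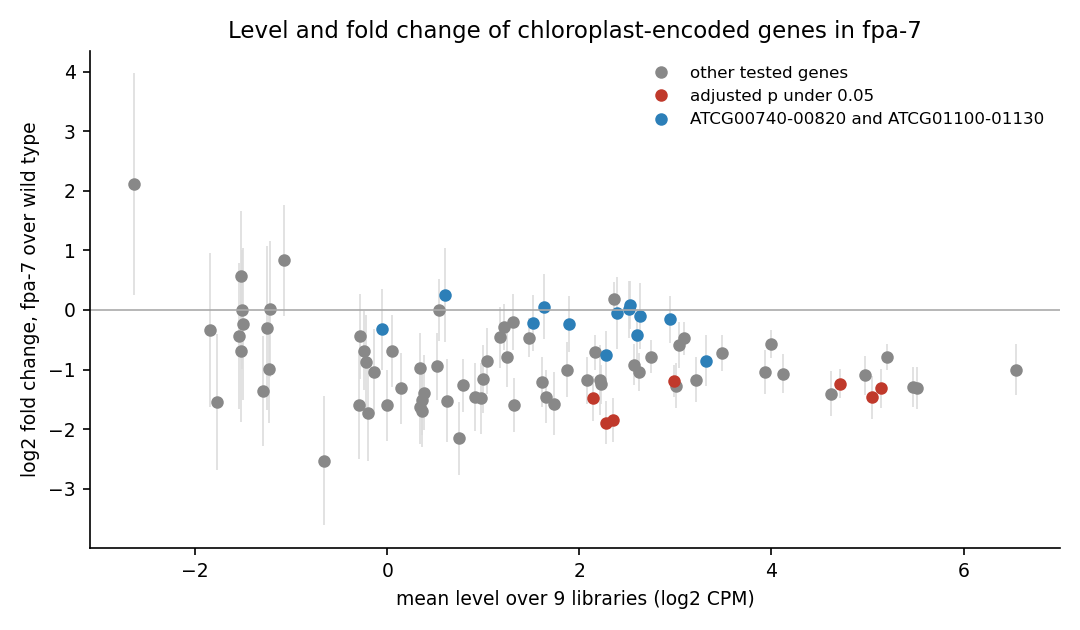
Log2 fold change in fpa-7 over wild type against the mean log2 CPM over 9 libraries, with standard errors, for 89 of the 90 tested members (ATCG01180, with no count in fpa-7, is left out). The 13 members of the runs ATCG00740 to ATCG00820 and ATCG01100 to ATCG01130 lie between -0.85 and 0.25, and the called members between -1.89 and -1.19.

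The notes give names to 4 of the tested members described here. ATCG00430 had 4.24, 2.498 and 3.47 CPM in fpa-7 against 7.01, 6.21 and 7.59 CPM in wild type, with no overlap (log2 fold change -1.04, SE 0.32, adjusted p = 0.0917). ATCG00670 (CLP P) had 7.18, 6.32 and 5.24 CPM in fpa-7 against 7.90, 9.31 and 8.87 CPM in wild type, also with no overlap (log2 fold change -0.47, SE 0.28, adjusted p = 0.378). For ATCG00530 and ATCG00660 the libraries overlapped, with log2 fold changes of -0.73 (SE 0.30, adjusted p = 0.210) and -1.16 (SE 0.57, adjusted p = 0.287). Of these 4 members edgeR called 0, with 2 lower at an unadjusted p under 0.05, ATCG00430 and ATCG00530, and DESeq2 called 1, ATCG00430.

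**Figure D5:**
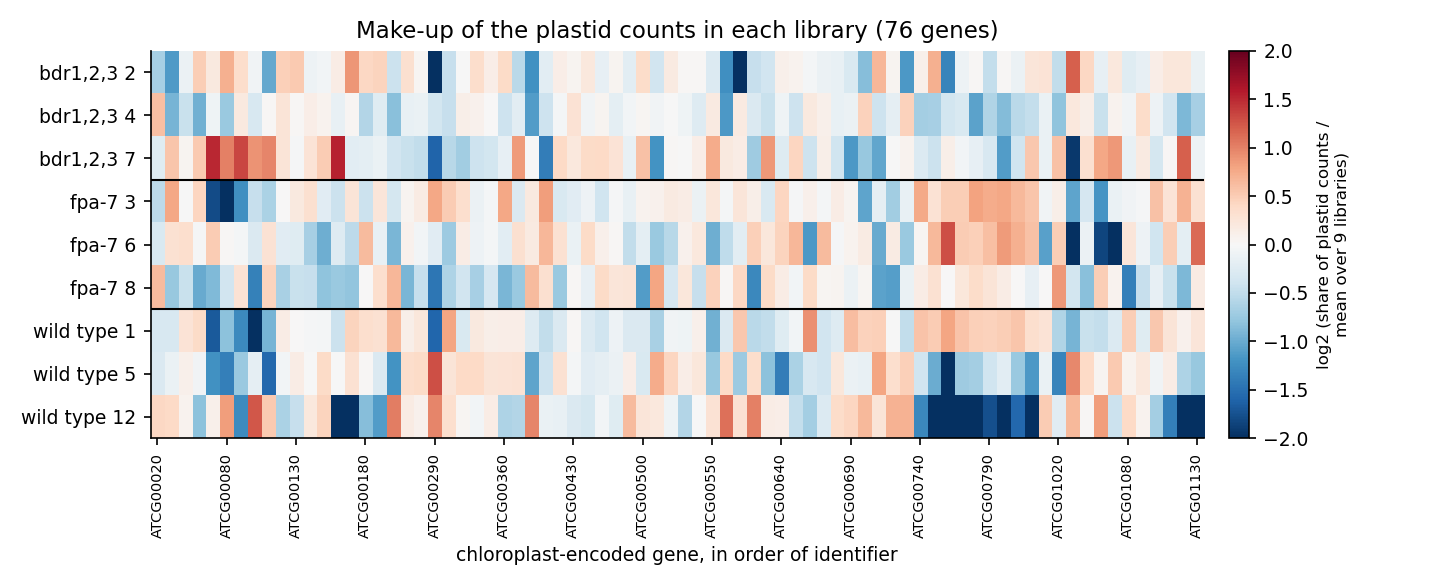
Share of the plastid counts of each library taken by each of 76 members with a mean of at least 10 counts per library, as the log2 ratio to the mean share over 9 libraries (limited to -2 and 2, zero counts shown at -2). Members run from left to right by identifier. The run of low values in wild-type replicate 12 covers ATCG00740 to ATCG00820, which took 1.38% of its plastid counts.

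In bdr1,2,3 no member was called against wild type, with 0 lower (1.76% of all genes tested) and 0 higher (0.546% of all genes). DESeq2 called 1 member higher, ATCG00090, and edgeR called 1 without wild-type replicate 12, ATCG00070. At an unadjusted p under 0.05 edgeR had 3 members (3.33%, against 14.5% of all genes), 1 lower and 2 higher. This comparison uses the same wild-type libraries as that of fpa-7. The libraries did not overlap in 5 members that were lower (9.15% of all genes) and 4 that were higher (9.02% of all genes). The median log2 fold change was -0.15, with 57 members below 0, and it turned to 0.10 without bdr1,2,3 replicate 7. The median SE of a member was 0.483, so small changes of single members were not detectable with this spread between libraries.

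ATCG00090 had the smallest p in bdr1,2,3. It had 3.72, 4.18 and 3.71 CPM in bdr1,2,3 replicates 2, 4 and 7, against 1.143, 1.27 and 1.87 CPM in wild-type replicates 1, 12 and 5, and the groups did not overlap. Its log2 fold change of 1.41 (SE 0.37, adjusted p = 0.0639) stayed above the threshold. ATCG00070 had 3.64, 3.74 and 4.53 CPM in bdr1,2,3 against 0.935, 3.53 and 1.46 CPM in wild type (log2 fold change 1.13, SE 0.47, adjusted p = 0.277). Between them in identifier order, ATCG00080 had 4.15, 1.87 and 2.54 CPM in bdr1,2,3 against 1.35, 4.66 and 1.05 CPM in wild type, with overlap. In these 3 members bdr1,2,3 replicate 7 was not low, unlike in most others. Summed, they had 11.5, 9.80 and 10.8 CPM in bdr1,2,3, 1.86, 3.72 and 3.38 CPM in fpa-7, and 3.43, 9.45 and 4.38 CPM in wild type. Wild-type replicate 12 again differed from the other wild-type libraries.

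The direct comparison of the mutants gave 5 members higher in bdr1,2,3 than in fpa-7 (5.56%, against 1.27% of all genes tested) and 0 lower (1.97% of all genes, with 0 members lower at an unadjusted p under 0.05 and 0 by DESeq2). The median log2 fold change was 0.81, a fold of 1.75, with 78 of 90 members above 0. At an unadjusted p under 0.05, 40 members were higher (44.4%, against 6.73% of all genes). In 21 members the libraries did not overlap, all in the direction of bdr1,2,3 (23.3%, against 11.3% of all genes), and in 0 members were they all lower (12% of all genes). This comparison shares the fpa-7 libraries with that against wild type and is not separate evidence on fpa-7. No member was called without bdr1,2,3 replicate 2 or without replicate 4, 1 without fpa-7 replicate 6 or without replicate 8, 8 without fpa-7 replicate 3, and 18 without bdr1,2,3 replicate 7 or without wild-type replicate 12.

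The 5 called members were ATCG00070, ATCG00090, ATCG00120, ATCG00150 and ATCG01050. ATCG00090, with the bdr1,2,3 values above, had 0.847, 1.06 and 1.67 CPM in fpa-7 (log2 fold change 1.69, SE 0.37, adjusted p = 0.0181). ATCG00070 had 0.621, 1.70 and 0.809 CPM in fpa-7, and its log2 fold change was 1.92 (SE 0.48, adjusted p = 0.0389). For both, every bdr1,2,3 library was above every fpa-7 library.

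ATCG00120 had 52.3, 55.8 and 22.3 CPM in bdr1,2,3 replicates 2, 4 and 7, against 25.4, 12.01 and 11.2 CPM in fpa-7 replicates 3, 6 and 8, and overlapped through bdr1,2,3 replicate 7 (log2 fold change 1.43, SE 0.33, adjusted p = 0.0250). ATCG00150 had 5.69, 7.69 and 4.19 CPM in bdr1,2,3, all above its fpa-7 values (log2 fold change 1.55, SE 0.37, adjusted p = 0.0306). ATCG01050 had 6.76, 6.85 and 3.16 CPM in bdr1,2,3, also above fpa-7 (log2 fold change 1.55, SE 0.37, adjusted p = 0.0325). ATCG00150 and ATCG01050 were called in fpa-7 against wild type as well.

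Within each mutant the libraries differed in how many members they placed outside wild type. In fpa-7, 44 members in replicate 3, 62 in replicate 6 and 58 in replicate 8 lay below all wild-type libraries, and 5, 2 and 3 lay above. In bdr1,2,3, 17 members in replicate 2 and 7 in replicate 4 lay below all wild-type libraries, and 22 and 25 lay above. For replicate 7 the numbers were 53 below and 10 above. The same counts over all genes were not made, so how far any of these numbers departs from the usual share is not known. The number below in replicate 7 lay within the range of the fpa-7 libraries, and its number above did not. In its mitochondrial share (0.0415%) replicate 7 lay above every fpa-7 library (at most 0.03505%). The cause of the low plastid values in replicate 7 was not tested.

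The last question was whether nuclear genes for plastid transcription and RNA decay differed. The list held 23 genes: sigma factors SIG1 to SIG6, the phage-type polymerases RPOTp and RPOTmp, the polymerase-associated proteins PAP1 to PAP12, and 3 genes for plastid ribonucleases and PNPase. In fpa-7 edgeR called 0 of the 23. Their median log2 fold change was 0.19, against 0.01 over all genes tested. At an unadjusted p under 0.05, 7 were higher (30.4%, against 8.80% of all genes). DESeq2 called 3 of them higher, SIG2, PAP6 and PAP9 (2.71% of all genes). The 6 sigma factor genes lay between 0.15 and 0.52. For all of them except SIG5, replicate 12 was the lowest wild-type library. SIG2, SIG4 and SIG6 had 46.4, 20.5 and 66.9 CPM in it. They had 70.0, 40.2 and 100.9 CPM in wild-type replicate 1, and 59.3, 34.3 and 92.0 CPM in replicate 5. The counts of higher genes without replicate 12 were not taken, and the bdr1,2,3 comparison uses the same wild-type libraries. In bdr1,2,3 against wild type edgeR called 1 of the 23 lower (1.76% of all genes) and 0 higher (0.546%), with a median of 0.14. At an unadjusted p under 0.05, 1 was lower (8.41% of all genes) and 2 were higher (8.70%, against 6.13% of all genes).

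The gene that fell was PAP10 (AT3G06730), a thioredoxin-like protein of the plastid-encoded polymerase complex. It had 15.2, 12.1 and 8.79 CPM in bdr1,2,3 replicates 2, 4 and 7, against 31.2, 47.8 and 29.5 CPM in wild-type replicates 1, 12 and 5. The groups did not overlap, and the log2 fold change was -1.57 (SE 0.22, adjusted p = 0.000646 from edgeR). In fpa-7 replicates 3, 6 and 8 it had 31.5, 24.2 and 27.5 CPM, which was not called against wild type (log2 fold change -0.37, SE 0.21, adjusted p = 0.371). Its level was also lower in bdr1,2,3 than in fpa-7 (log2 fold change -1.20, SE 0.22, adjusted p = 0.00505). Among the bdr1,2,3 libraries PAP10 was lowest in replicate 7, which also had the smallest plastid share of them. Replicates 2 and 4 had low PAP10 with plastid shares in or above the range of wild type. A relation between PAP10 and the plastid share was not tested.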

How the data were processed

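The authors aligned 49 bp single-end reads to TAIR10 with TopHat2 2.0.8, kept uniquely aligned reads with SAMtools 1.2 and deposited unnormalized counts per gene from featureCounts, per the submitters' processing notes and the study's methods. The strand setting is not given in the sources used here, so overlapping genes can share reads. A deposited normalized table holds no chloroplast rows and was not used. Libraries were grouped by their labels. No column was of unknown sample (0).

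All rows with a summed count of 10 or more were fitted with edgeR 4.0.16 in R 4.3.3 (TMM on full library totals, 1 quasi-likelihood fit of 9 libraries, two-sided tests, p-values adjusted by Benjamini-Hochberg, threshold 0.05). Each SE came from the fold change and its F statistic. CPM are TMM-scaled. The fit was tested on simulated data, and the common BCV (relative spread between replicates) was 0.192. Shares were compared by exact permutation in Python 3.11.15 with scipy 1.17.1. Stretches of 49 bases were counted in the RefSeq TAIR10.1 genome, whose annotation matched 0 of 133 identifiers.

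The members and lists were chosen with earlier results of these data known. Named members are those called, those with notes (1 is not reported here) and the most abundant. Others were chosen after their values were seen, and so were the runs of identifiers. A planned grouping by function and a share without rRNA and tRNA genes could not be made without symbols. Alternatives were DESeq2 1.42.0, other scalings, filters, thresholds and sample sets, and leaving out each library.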

Additional observations from a re-analysis of the deposited data

How the results depend on the processing

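The members called lower in fpa-7 against wild type (7 as reported) numbered 16 with DESeq2, 0 scaled to the plastid total (2 higher), 2 with library totals alone, 4 with filterByExpr, 17 without a filter and 1 at an adjusted p under 0.01. Leaving out a library gave 0 to 16, and 0 higher throughout. Members higher in bdr1,2,3 than in fpa-7 (5 as reported) numbered 16 with DESeq2, 0 scaled to the plastid total, 3 with library totals alone, 13 without a filter, 14 with only the 2 genotypes compared and 0 at an adjusted p under 0.01, with 0 to 18 when a library was left out. For bdr1,2,3 against wild type DESeq2 called 1 higher, and leaving out a library gave 0 or 1 higher and 0 lower. In bdr1,2,3 against fpa-7, 0 were lower in each such fit. Scaled to the plastid total, which centres the members by construction, the median log2 fold change was 0.037 in fpa-7 against wild type and -0.037 in bdr1,2,3 against fpa-7. That scaling moves the median of all genes to 1.095 and -0.739, and to 0.352 in bdr1,2,3 against wild type. Library totals alone move it to 0.152, -0.04 and 0.109 in the same order. Leaving out a library, the medians of the members in that order ran from -1.382 to -0.83, from 0.612 to 1.029 and, for bdr1,2,3 against wild type, from -0.316 to 0.1. The share difference ran from -0.0411 to -0.0291 percentage points in fpa-7 against wild type, from 0.0194 to 0.0496 in bdr1,2,3 against fpa-7, and from -0.0148 to 0.0154 in bdr1,2,3 against wild type. For the 10 called members and ATCG00020, ATCG00280, ATCG00490 and ATCG00670, of 756 values under the alternatives 81 lost a call, 33 gained one and none reversed a call. RLE size factors and scaling on nuclear genes alone gave 7 and 5 calls, the same members. No paired analysis was possible because the genotypes share no replicate number. Depth limits the 14 tested members with a mean under 10 counts per library.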
